A study of Mus musculus with 8 samples.

Results

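Gpr18 and a group of inflammatory G protein-coupled receptors were examined in RAW 264.7 cells, a mouse macrophage-like cell line, on 8 Affymetrix mouse arrays. The list held 9 receptor genes: Gpr18, Gpr84, Hcar2, P2ry6, C3ar1, C5ar1, Fpr1, Fpr2 and Adora2b. They were chosen by name with earlier results of these arrays known, and Gpr18 was chosen on its higher signal in M and in LPS compared to control. How menthol and LPS combined on Gpr18 was known by then too. Of the 9 genes, 7 had a probe set annotated to that symbol alone, among 18193 such genes on the array, and Fpr1 and Adora2b were not analysed here. These 7 genes had 10 probe sets, and the brightest probe set of each gene, by its mean on the 8 arrays, served as the main one. The groups held 2 arrays each and were menthol followed by LPS (LPS+M), LPS alone, menthol alone (M) and control. Pretreatment lasted 1 h, and cells of the LPS+M and LPS groups then received 100 ng/ml LPS during 6 h. The study states a dose of menthol, which the labels do not give and which is not repeated here. The labels give no harvest time for the M and control groups, so a difference in time cannot be told apart from LPS in comparisons with those groups. All samples came from this 1 cell line, and the labels name the arrays of a group biological replicates without saying whether they came from separate cultures. Spread between the arrays of a group, which the p-values are based on, may thus be technical.

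G protein-coupled receptors span the membrane and pass the binding of a ligand to G proteins inside the cell, which change cyclic AMP, calcium or phosphoinositide signaling, and macrophages use many of them to sense bacterial peptides, complement fragments, nucleotides and metabolites. C3ar1 and C5ar1 encode the receptors of the complement fragments C3a and C5a, and Fpr1 and Fpr2 encode formyl peptide receptors. P2ry6 encodes a receptor of UDP and Adora2b a receptor of adenosine. Hcar2 encodes the receptor of niacin and beta-hydroxybutyrate, and Gpr84 a receptor of medium-chain fatty acids. Gpr18 encodes a receptor of leukocytes for which lipid ligands have been proposed.

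The deposited values are log2 GC-RMA signals, and a difference of 1 on this scale is a 2-fold difference in signal. The mean of all probe sets over the 8 arrays was 4.84, and a group whose mean lay under it was taken as near background. Genes with an overall mean above 4.84 were tested, which kept 8908 genes. Of the 7 receptors, 5 passed this filter (Gpr18, Gpr84, P2ry6, C3ar1 and C5ar1), while Hcar2 (overall mean 4.36) and Fpr2 (2.38) did not and were taken from a fit of all 18193 genes. The filter is met by a gene that is high in some groups only, as was Gpr18 (overall mean 6.23), and Hcar2 lay 0.48 under it. A gene was called higher or lower at a Benjamini-Hochberg adjusted p under 0.05 by limma where the fold change also reached 1.5. The ± sign precedes the standard error of each log2 difference. All 10 macrophage markers, among them Csf1r and Cd68, passed the filter on these arrays, and 12 genes of other tissues, such as Alb and Gfap, had overall means of 1.64 to 3.58. None of the measured markers of T cells, B cells, dendritic cells, mast cells, fibroblasts or epithelium passed it, and of 5 neutrophil markers only S100a8 did. The summed log2 signal of the macrophage markers was 116.4 to 117.0 in LPS+M, 116.5 to 116.9 in LPS, 118.0 in M and 117.4 to 117.8 in control. Single markers were called in opposite directions within it: Adgre1 rose by 0.95 ± 0.07 and Fcgr1 fell by 0.89 ± 0.10 in LPS compared to control, and Fcgr1 and Mertk fell by 0.73 ± 0.10 and 0.61 ± 0.07 in LPS+M compared to control. The part of these differences in the receptor results was not tested.

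The Gpr18 signals of the 4 groups did not overlap. Its only probe set had log2 signals of 8.64 and 8.23 in LPS+M, 7.30 and 7.30 in LPS, 5.30 and 5.85 in M, and 3.71 and 3.52 in control. The order was LPS+M, LPS, M and control, and no group overlapped its neighbor in this order. That M and LPS lay above control follows from how the gene was chosen. The 4 groups of Gpr84 were also separate, in the order LPS, LPS+M, control and M. How many of all genes separate in this way was not counted. The Gpr18 control mean of 3.62 was near background and close to the highest of the genes of other tissues. Its M mean of 5.57, LPS mean of 7.30 and LPS+M mean of 8.44 lay above background. On the arrays this corresponded to a position above 80.6% of all probe sets in LPS+M, 74.7% in LPS, 67.3% in M and 59.2% in control, averaged over the arrays of a group. Bulk RNA cannot tell more cells with Gpr18 transcripts from more transcripts per cell. Gpr18 rose in LPS+M compared to LPS by 1.13 ± 0.19 on the log2 scale (95% interval 0.70 to 1.57), a 2.19-fold difference. It rose in LPS+M compared to M by 2.86 ± 0.19, or 7.27-fold. Since how menthol and LPS combined on Gpr18 was known when it was chosen, both differences are a description and no p-value is given. The values that chose Gpr18 are likewise a description and carry no test: 1.96 ± 0.19 in M compared to control (3.89-fold) and 3.69 ± 0.19 in LPS compared to control (12.9-fold). From the same arrays, it had 4.82 ± 0.19 in LPS+M compared to control, a 28.2-fold difference in signal, and 1.73 ± 0.19 in LPS compared to M. The combined signal of 8.44 stands beside 9.26, the sum of the control signal and the separate differences of menthol and LPS from it, but that sum is built from the values that chose the gene and from a control near background, so nothing is read from the gap. Since the control lay near background, where GC-RMA compresses signals, folds against it are folds of signal and may understate the difference in RNA. In LPS+M compared to LPS, Gpr18 did not pass the methods' t-test.

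**Figure D1:**
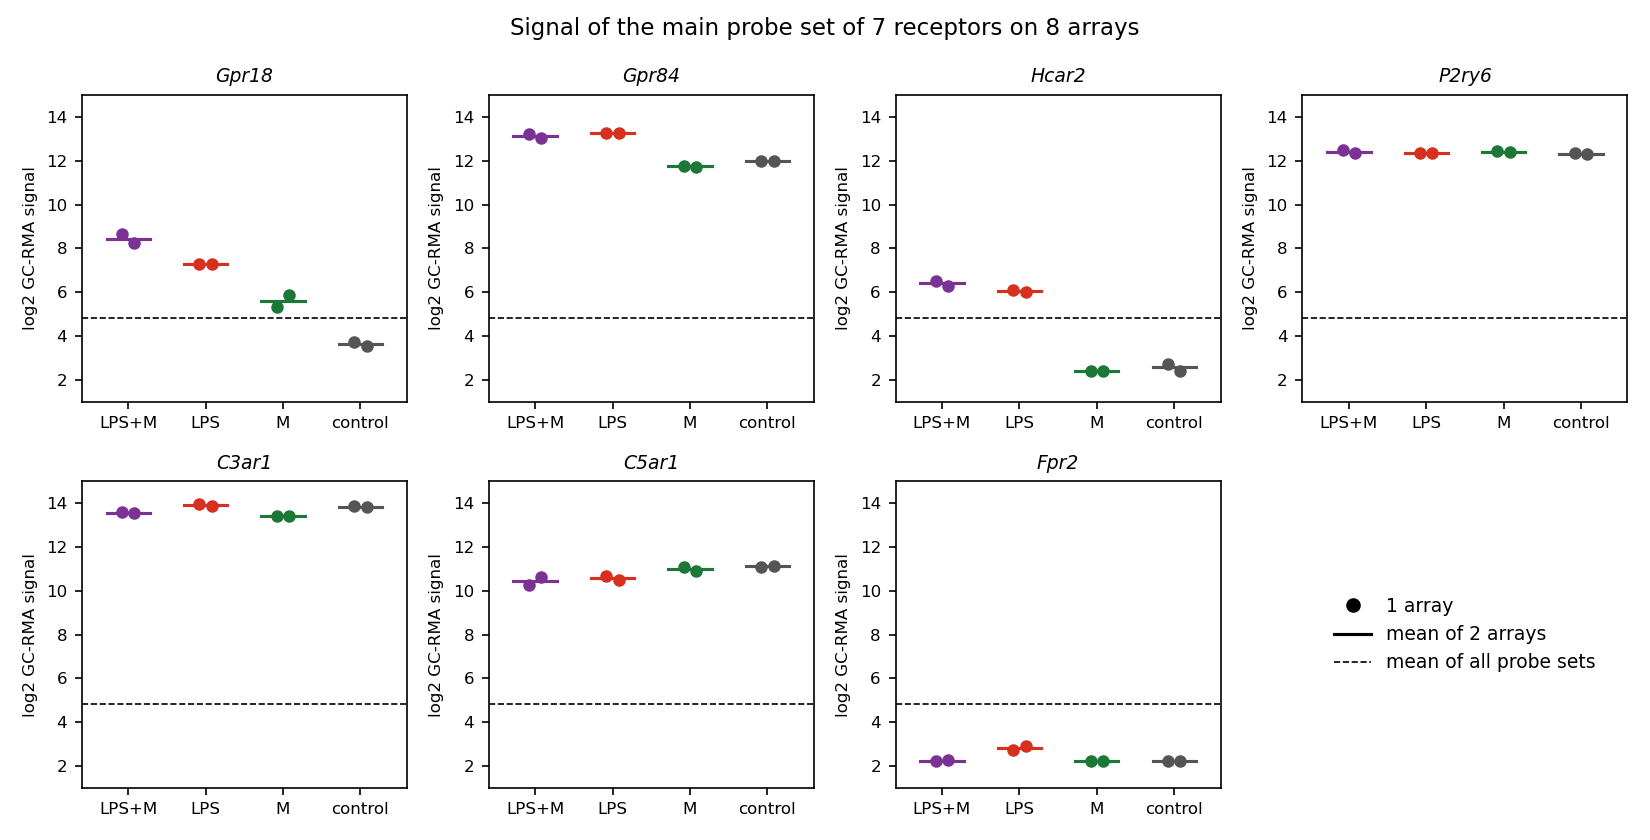
Log2 GC-RMA signal (y axis) of the main probe set of 7 receptors in LPS+M, LPS, M and control (x axis), with a point for each array, a line at the mean of 2 arrays and a dashed line at 4.84, the mean of all probe sets. Gpr18 steps down in the order LPS+M, LPS, M and control, Hcar2 lies above the dashed line only with LPS, and Fpr2 lies under it on all 8 arrays.

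Gpr84 and Hcar2, the receptors of fatty acids and of hydroxy-carboxylic acids, were higher in the groups with LPS and not called between groups that differed by menthol alone. Gpr84 had 13.22 and 13.05 in LPS+M, 13.27 and 13.28 in LPS, 11.77 and 11.71 in M, and 12 and 11.98 in control. It was high in every group, above 95.1% to 98.3% of all probe sets, and all arrays with LPS lay above all arrays without it. Gpr84 rose by 1.29 ± 0.07 in LPS compared to control (2.44-fold, limma adjusted p = 2.41e-05), by 1.39 ± 0.07 in LPS+M compared to M (2.63-fold, limma adjusted p = 1.85e-05), by 1.15 ± 0.07 in LPS+M compared to control and by 1.54 ± 0.07 in LPS compared to M. Between LPS+M and LPS its difference was -0.14 ± 0.07, with an interval of -0.31 to 0.02 (limma adjusted p = 0.18). The M to control difference was -0.25 ± 0.07, with an interval of -0.41 to -0.08 (limma adjusted p = 0.0442), under the 1.5-fold minimum. Hcar2 had 6.50 and 6.30 in LPS+M, 6.12 and 6.01 in LPS, 2.40 and 2.39 in M, and 2.74 and 2.39 in control. The M and control groups were near background and overlapped, and both LPS groups lay above 4.84. Hcar2 rose by 3.50 ± 0.13 in LPS compared to control (11.3-fold, limma adjusted p = 0.000198 over all 18193 genes) and by 4.01 ± 0.13 in LPS+M compared to M (16.1-fold, limma adjusted p = 0.000197). These folds of signal are taken against groups near background. Hcar2 also rose by 3.84 ± 0.13 in LPS+M compared to control and by 3.67 ± 0.13 in LPS compared to M. Its LPS+M to LPS difference was 0.34 ± 0.13, with an interval of 0.02 to 0.66 (limma adjusted p = 0.195), and in M compared to control -0.17 ± 0.13 (limma adjusted p = 0.698), neither of them called.

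The window around the RefSeq gene start, from 250 bases before to 50 bases after it, is shown for Gpr18 and Gpr84, the receptors above the filter that were higher with LPS, and for C5ar1, which was lower in LPS+M than in control. Sequences are RefSeq promoters of GRCm38.p6, read 5′ to 3′ on the strand of the gene, and 7 of the 9 listed genes had a window. Gpr18 lies on chr14:121915839-121916138, Gpr84 on chr15:103310389-103310688 and C5ar1 on chr7:16259289-16259588, all on the minus strand. Capitals mark a match to any of 5 motifs searched on both strands: NF-kB-like GGANNTTCC, AP-1-like TGANTCA, ISRE-like GAAANNGAA, C/EBP-like TTGCNNNAA and PU.1-like GAGGAA.
Gpr18: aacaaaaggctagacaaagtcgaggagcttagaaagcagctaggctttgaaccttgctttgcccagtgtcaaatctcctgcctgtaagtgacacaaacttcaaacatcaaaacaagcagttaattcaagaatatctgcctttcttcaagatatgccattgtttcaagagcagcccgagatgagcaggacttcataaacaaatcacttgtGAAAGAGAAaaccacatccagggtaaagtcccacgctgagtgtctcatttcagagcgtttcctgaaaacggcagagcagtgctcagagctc
Gpr84: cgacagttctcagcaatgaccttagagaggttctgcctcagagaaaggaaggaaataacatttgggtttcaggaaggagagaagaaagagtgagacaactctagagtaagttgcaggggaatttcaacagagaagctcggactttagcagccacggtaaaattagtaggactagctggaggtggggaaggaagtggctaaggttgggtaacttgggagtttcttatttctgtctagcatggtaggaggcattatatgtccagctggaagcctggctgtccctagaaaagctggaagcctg
C5ar1: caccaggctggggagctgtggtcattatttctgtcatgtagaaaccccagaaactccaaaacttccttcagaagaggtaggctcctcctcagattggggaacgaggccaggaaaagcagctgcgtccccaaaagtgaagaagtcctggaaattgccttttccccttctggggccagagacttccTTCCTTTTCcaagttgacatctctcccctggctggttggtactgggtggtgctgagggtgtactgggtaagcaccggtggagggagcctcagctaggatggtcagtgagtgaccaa

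The Gpr18 window held 1 match, to the ISRE-like motif at bases 210 to 218, whose name refers to the interferon-stimulated response element. C5ar1 held a match to the same motif on the opposite strand, at bases 185 to 193, and Gpr84 held none of the 5 motifs. Of 32851 promoter windows of the same length, 8.56% held the ISRE-like motif, 4.26% the NF-kB-like, 7.81% the AP-1-like, 9.56% the C/EBP-like and 28.3% the PU.1-like motif. C3ar1 held an AP-1-like match and Fpr2 a PU.1-like match. No match overlapped another, and a match is a description of the letters only.

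P2ry6, the receptor of UDP, was high in every group and was not called in any comparison. It had 12.47 and 12.36 in LPS+M, 12.34 and 12.35 in LPS, 12.43 and 12.40 in M, and 12.34 and 12.29 in control. Its group means spanned 0.10 on the log2 scale, and the 95% intervals of its 6 differences between groups lay within -0.22 and 0.25.

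The complement receptors C3ar1 and C5ar1 were above background in all 4 groups. The main C3ar1 probe set had 13.58 and 13.54 in LPS+M, 13.94 and 13.85 in LPS, 13.43 and 13.41 in M, and 13.85 and 13.81 in control. All 4 arrays with menthol lay below all 4 without it, and the LPS and control groups overlapped. Its differences were -0.41 ± 0.06 in M compared to control (limma adjusted p = 0.00388) and -0.33 ± 0.06 for LPS+M compared to LPS (limma adjusted p = 0.00654). Neither reached 1.5-fold and neither was called. In LPS compared to control C3ar1 had 0.06 ± 0.06, with an interval of -0.08 to 0.21. The other C3ar1 probe sets disagreed with each other. One of them (1419483_at) had -0.45 ± 0.11 in M compared to control and -0.48 ± 0.11 in LPS+M compared to LPS, alike in direction to the main one. The other (1419482_at) had -0.07 ± 0.07 and 0.16 ± 0.07 in these comparisons. Which transcripts each probe set reads was not tested.

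C5ar1 was lower in the groups with LPS. Its main probe set had 10.25 and 10.61 in LPS+M, 10.68 and 10.51 in LPS, 11.09 and 10.88 in M, and 11.10 and 11.12 in control. The arrays with LPS all lay below the arrays without it, and LPS+M overlapped LPS. C5ar1 fell by 0.68 ± 0.13 in LPS+M compared to control (1.60-fold, limma adjusted p = 0.0047), and without the first LPS+M array it had -0.50 and was not called. It did not pass the methods' t-test there. In LPS compared to control it had -0.51 ± 0.13 (limma adjusted p = 0.0241) and between LPS+M and M -0.56 ± 0.13 (limma adjusted p = 0.0249), both under the 1.5-fold minimum. The comparison of LPS with control passed it without the first LPS array, at -0.60, and the comparison of LPS+M with M passed it without the second LPS+M array, at -0.74. Its difference in LPS+M compared to LPS was -0.17 ± 0.13, and in M compared to control -0.12 ± 0.13. The second C5ar1 probe set (1422190_at) had 5.58 and 5.81 in LPS+M, 6.29 and 5.25 in LPS, 6.79 and 6.53 in M, and 7.23 and 6.65 in control. It fell by 1.25 ± 0.34 in LPS+M compared to control, and its -1.17 ± 0.34 in LPS compared to control was not called (limma adjusted p = 0.0589 over 14503 probe sets). With the mean of both probe sets C5ar1 was called in LPS compared to control, at -0.84, and in LPS compared to M, at -0.64.

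**Figure D2:**
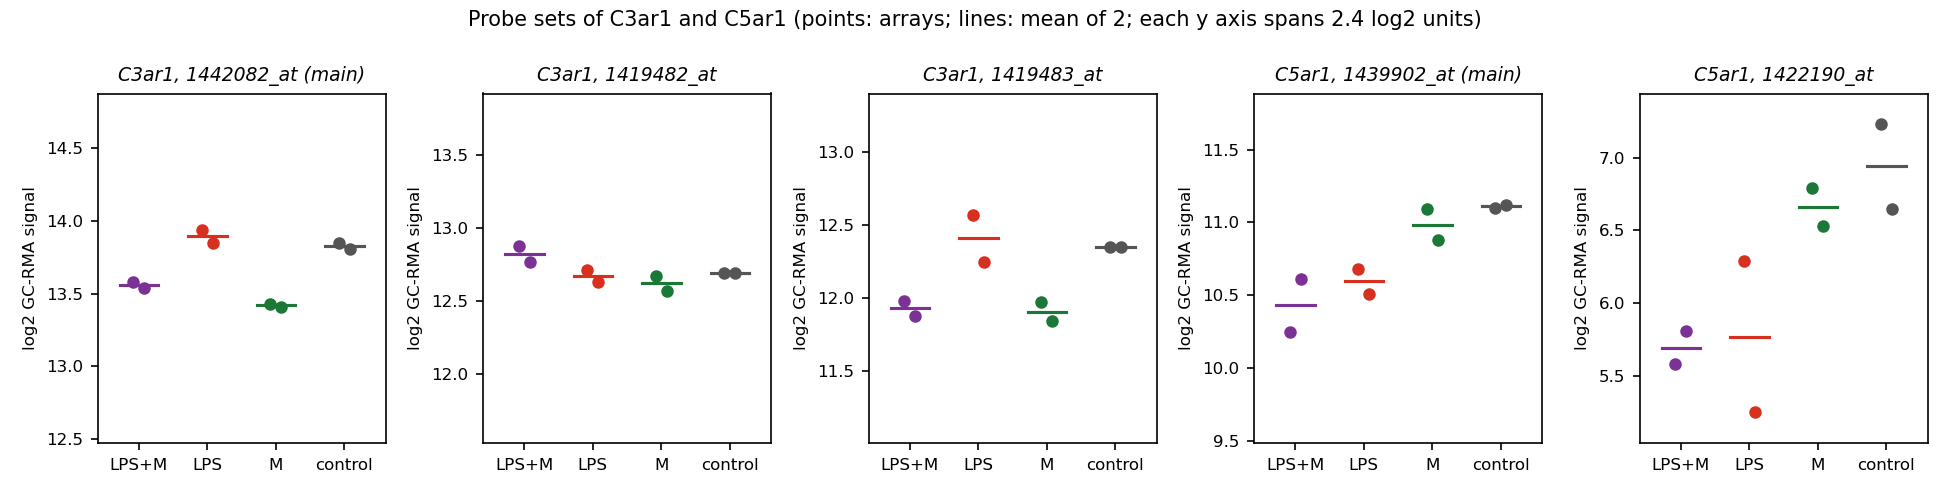
Log2 GC-RMA signal (y axes, each spanning 2.4 units) of the 3 probe sets of C3ar1 and the 2 of C5ar1 in LPS+M, LPS, M and control (x axes), with a point for each array and a line at the mean of 2. The arrays with menthol are the lower ones for 2 of the C3ar1 probe sets, and the arrays with LPS are the lower ones for both of C5ar1.

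Fpr2, a formyl peptide receptor, was near background in all 4 groups. It had 2.23 and 2.27 in LPS+M, 2.71 and 2.92 in LPS, 2.23 and 2.23 in M, and 2.25 and 2.22 in control. The LPS arrays lay above the other 6, which spanned 2.22 to 2.27, but all 8 values lay within the range of the genes of other tissues. In the fit of all genes Fpr2 had 0.58 ± 0.07 in LPS compared to control (limma adjusted p = 0.00673) and -0.57 ± 0.07 for LPS+M compared to LPS (limma adjusted p = 0.00683), just under 1.5-fold, and 0.59 ± 0.07 in LPS compared to M, just over it. At this level the size of a fold in RNA is not known. Leaving out the first LPS array took the comparison of LPS with control to 0.69 and that of LPS+M with LPS to -0.68, both past 1.5-fold, and leaving out the second took that of LPS with M to 0.48, under it.

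Across comparisons, the count of receptors called was set beside the share of all 8908 tested genes that was called. Gpr18 is counted, but nothing is read from its calls in any comparison. In M compared to control, Gpr18 was called higher out of 5 receptors and none was called lower, beside 3.01% of all genes higher and 1.54% lower, and of the other 4 receptors 2 had an unadjusted p under 0.05, beside 34.8% of all genes. In LPS compared to control, Gpr18 and Gpr84 were called higher and none lower, beside 3.17% higher and 2.96% lower. In LPS+M compared to LPS, Gpr18 was called higher and none lower, beside 4.22% higher and 2.49% lower. Of the other 4 receptors 1 had an unadjusted p under 0.05 there, beside 40.9% of all genes. In LPS+M compared to M, Gpr18 and Gpr84 were higher and none lower, beside 2.39% higher and 1.77% lower. In LPS+M compared to control, Gpr18 and Gpr84 were higher and C5ar1 lower, beside 5.53% higher and 4.30% lower. In LPS compared to M, Gpr18 and Gpr84 were higher and none lower, beside 4.59% higher and 6.70% lower. The interaction of menthol and LPS was called by limma for none of the 5, beside 0.0337% of all genes higher and 0.202% lower, and none of the 4 other than Gpr18 had an unadjusted p under 0.05, beside 10.0% of all genes. Hcar2 was called higher in the fit of all 18193 genes in LPS compared to control, beside 1.54% of genes called higher there, in LPS+M compared to M (1.15%), in LPS+M compared to control (2.73%) and in LPS compared to M (2.33%). These comparisons share arrays, so their counts are not independent.

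**Figure D3:**
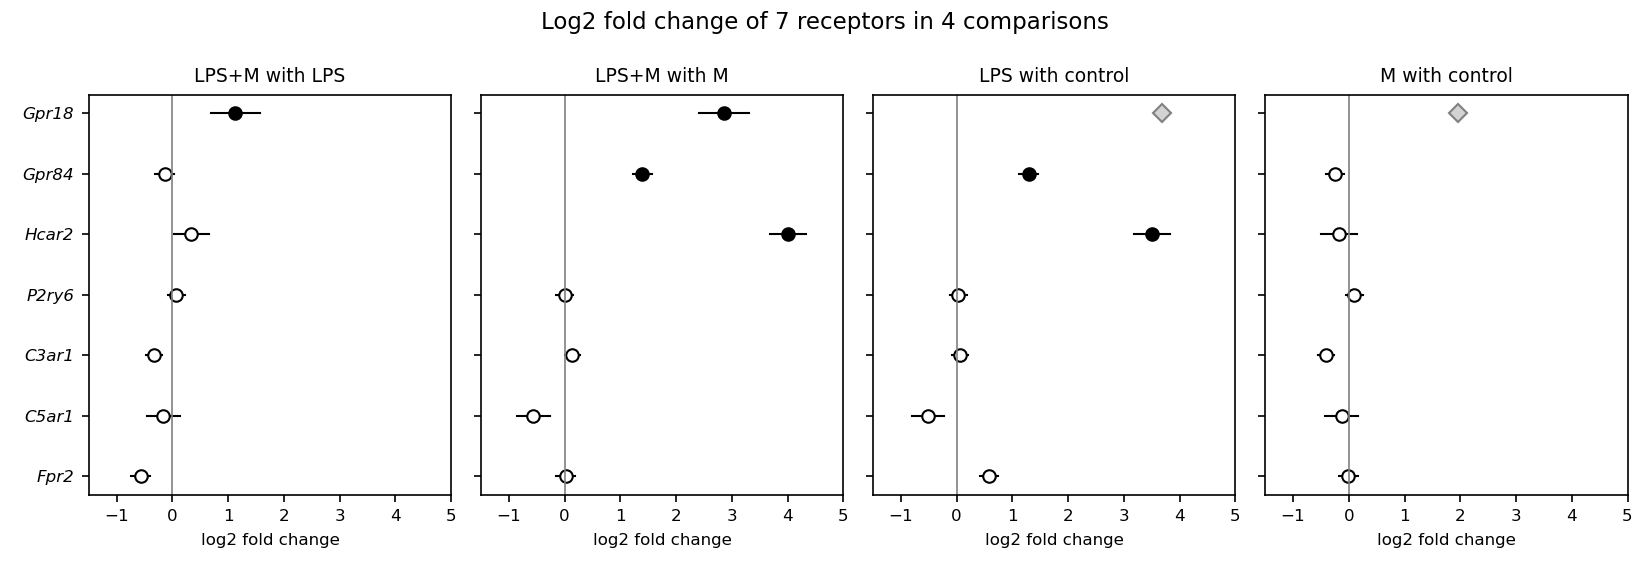
Log2 fold change (x axes) of 7 receptors (y axis) in LPS+M compared to LPS, LPS+M compared to M, LPS compared to control and M compared to control, with 95% intervals as lines and filled points where the gene was called, Hcar2 and Fpr2 from the fit of all genes. Grey diamonds mark the untested values that chose Gpr18, which is filled at 1.13 in LPS+M compared to LPS and at 2.86 in LPS+M compared to M. Its filled points are a description as well, since how menthol and LPS combined on Gpr18 was known when it was chosen.

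The genes whose signal was most like Gpr18 over the 8 arrays, among those above the filter, were Lmo4, a LIM domain transcription regulator (Pearson r = 0.994), Fcgr2b, the inhibitory Fc gamma receptor (0.993), Cep43, a centrosomal protein (0.992), Dnmt3l, a cofactor of DNA methyltransferases (0.992), and Jak2, a kinase of cytokine receptors (0.990). These correlations are descriptions over 8 arrays, which share their groups and normalization. Jak2 had group means of 10.48 in LPS+M, 9.86 in LPS, 9.35 in M and 8.32 in control, and Fcgr2b had 14.79, 14.53, 14.20 and 13.89 in the same groups. Their group means differed less than those of Gpr18, which spanned 4.82. Gpr84 was most like Cd40, a costimulatory receptor (0.996), and Casp4, an inflammatory caspase (0.995), and C3ar1 was most like Nt5dc1 and the chemokine gene Ccl12 (0.980 each). C5ar1 was most like the kinase gene Rps6ka5 (0.987) and E2f7, a repressor of cell cycle genes (0.986). P2ry6 was most like Dcaf8 (0.984) and Drosha, the nuclease of miRNA processing (0.961). P2ry6 was not called in any comparison and its group means spanned 0.10, so its correlations rest on small differences between arrays.

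Other receptors of the same families and of macrophages were mostly near background. Of 44 such genes, 33 were measured and 9 passed the filter. Between LPS+M and LPS, 1 of the 9 rose and none fell, beside 4.22% of all genes called higher and 2.49% lower. The median was -0.15 against 0.03 over all genes. In M compared to control 1 rose and none fell (median -0.13 against 0.02), beside 3.01% higher and 1.54% lower. In LPS compared to control none rose and 3 fell (median -0.31 against -0.03), beside 3.17% higher and 2.96% lower. Gpr35, an orphan receptor for which tryptophan metabolites have been proposed as ligands, was the gene that rose with menthol, by 1.15 ± 0.19 in LPS+M compared to LPS and by 1.26 ± 0.19 in M compared to control. Gpr35 fell by 0.66 ± 0.19 in LPS compared to control, and its group means were 6.93 in LPS+M, 5.77 in LPS, 7.69 in M and 6.43 in control. Cysltr1, a receptor of cysteinyl leukotrienes, fell by 1.12 ± 0.17 and S1pr1, a receptor of sphingosine phosphate, by 0.65 ± 0.14 in LPS compared to control. Cysltr1 fell by 0.95 ± 0.17 and Gpr35 by 0.76 ± 0.19 in LPS+M compared to M, and no gene of this list rose. Of all genes, 2.39% were called higher and 1.77% lower there.

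The next lists, too, were chosen with earlier results of these arrays known. Of all 8908 tested genes, 3.17% were called higher and 2.96% lower in LPS compared to control. These shares were 4.22% and 2.49% in LPS+M compared to LPS, and 3.01% and 1.54% in M compared to control. Of 22 genes of ligands and of enzymes that make or remove them, 18 were measured and 8 passed the filter. Saa3, an acute-phase protein of a family that binds formyl peptide receptors, rose by 5.18 ± 0.11 in LPS compared to control and fell by 1.56 ± 0.11 in LPS+M compared to LPS, and it was the only one of the 8 called in either. None was called in M compared to control, where the median was -0.10. Of 15 measured G protein subunits 12 passed the filter, with means that reached 13.19, and 1 was called in LPS compared to control: Gna12 fell by 0.97 ± 0.10. None was called in LPS+M compared to LPS or in M compared to control. Desensitization involves arrestins and receptor kinases, which uncouple receptors from G proteins, and regulators of G protein signaling, which speed GTP hydrolysis by G alpha subunits. Of 12 tested genes of this list, 3 fell and none rose in LPS compared to control: Rgs1 by 0.79 ± 0.10, Rgs18 by 0.76 ± 0.11 and Rgs14 by 0.75 ± 0.08. Between LPS+M and LPS, 2 fell and 1 rose, with beta-arrestin 1 (Arrb1) at -0.73 ± 0.11, Rgs18 at -0.70 ± 0.11 and the receptor kinase gene Grk5 at 0.64 ± 0.13. In M compared to control, Rgs18 fell by 0.95 ± 0.11 and Rgs3 rose by 0.61 ± 0.13.

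Of 17 tested effectors of cyclic AMP and phosphoinositide signaling, 3 rose and none fell in M compared to control (median 0.07 against 0.02 over all genes). Of all genes, 3.01% were called higher and 1.54% lower there. Those that rose were the phosphodiesterase genes Pde3b (1.66 ± 0.21) and Pde4b (0.85 ± 0.08), which encode enzymes that degrade cyclic AMP, and Crem (1.36 ± 0.12), a transcription factor that responds to cyclic AMP. Between LPS+M and LPS, 3 rose and none fell, beside 4.22% of all genes higher and 2.49% lower. These were Crem at 1.21 ± 0.12, Pde3b at 0.83 ± 0.21 and Pde7a, another phosphodiesterase gene, at 0.60 ± 0.07. In LPS compared to control, 2 rose and 2 fell, beside 3.17% of all genes higher and 2.96% lower. Pde4b rose by 1.39 ± 0.08 and Pik3r5, a regulatory subunit of the phosphoinositide kinase that G proteins activate, by 1.22 ± 0.09. Crem fell by 0.80 ± 0.12 and Pde3b fell by 0.77 ± 0.21. Pde4b had group means of 7.83 in LPS+M, 7.84 in LPS, 7.31 in M and 6.45 in control. Its LPS+M signal therefore lay 0.87 ± 0.12 below the sum of the control signal and the separate differences of M and LPS from it. This interaction was called (limma adjusted p = 0.0424), the only one among the effectors, beside 0.0337% of all genes higher and 0.202% lower. This call was lost in the fit of all 18193 genes (limma adjusted p = 0.128) and without 6 of the 8 arrays, each left out in turn. In LPS compared to M, 1 rose and 5 fell, beside 4.59% of all genes higher and 6.70% lower. The largest changes were Pde3b at -2.42 ± 0.21, Crem at -2.16 ± 0.12, Pik3r5 at 1.23 ± 0.09 and its catalytic partner Pik3cg at -0.79 ± 0.12.

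**Figure D4:**
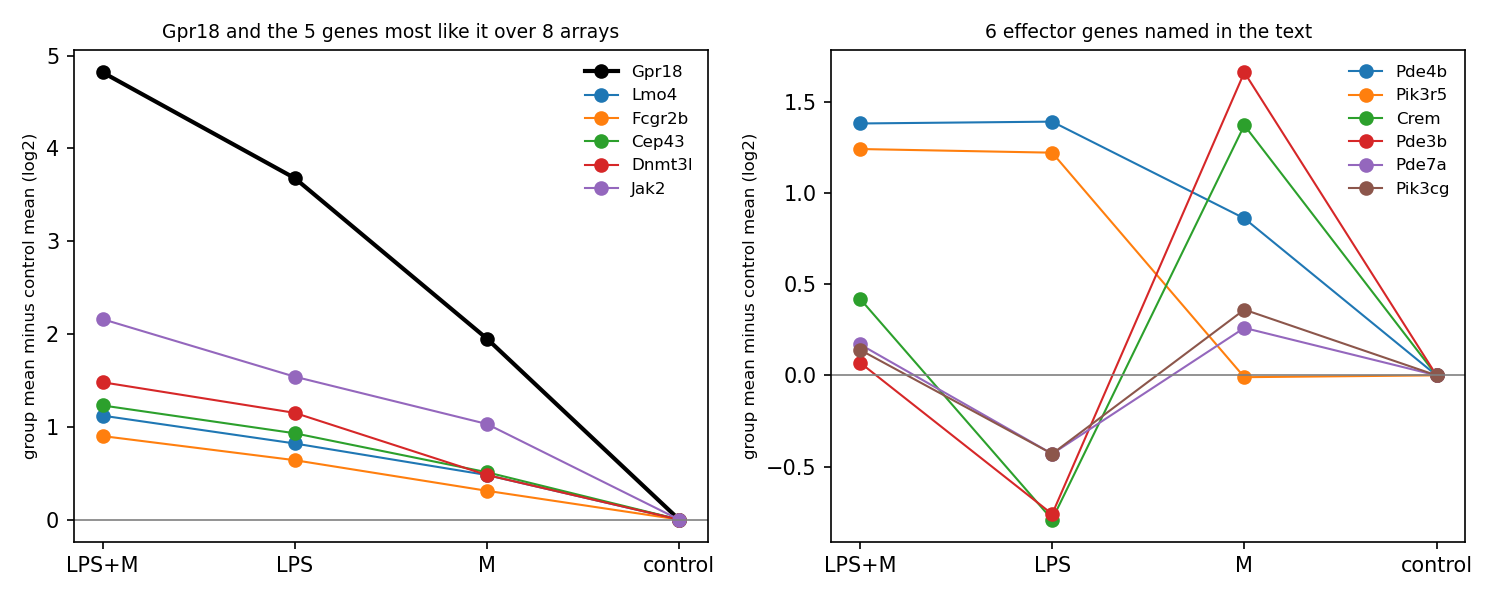
Group means minus the control mean (y axes, log2) in LPS+M, LPS, M and control (x axes), for Gpr18 with the 5 genes most like it on the left and for 6 effector genes on the right, with a line for each gene. Gpr18 stands at 4.82, 3.69, 1.96 and 0 in this order, and Crem, Pde3b, Pde7a and Pik3cg are highest in M.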

How the data were processed

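The deposited values were log2 signals that the authors made from Affymetrix Mouse Genome arrays with GCRMA (version 2.10.0, run under R version 2.6.1), per the labels and the study's methods. GC-RMA corrects background by probe GC content, which compresses low signals, and quantile normalizes arrays before the probe set summary. The medians of the 8 arrays were 2.99 to 3.04, and the 2 arrays of a group correlated at 0.9988 to 0.9994 across probe sets. Probe sets with several symbols (932), no symbol (9160) or control probes (64) were left out of 45101.

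limma 3.58.1 (lmFit, eBayes; R 4.3.3) was fitted on all 8 arrays, with a coefficient for each group, 4 residual and 3.78 prior degrees of freedom, and p-values adjusted over all genes tested. The filter and the 1.5-fold minimum follow the study's methods. The fit was tested on simulated data. Exact permutation of 2 against 2 arrays was left out, since its smallest two-sided p is 0.333. The members and lists were chosen with earlier results of these data known. Named are all receptors, up to 4 called genes of each other list with the largest change in a comparison, and the 5 genes (Gpr18) or 2 genes (others) with the highest correlation. Alternatives covered the filter, probe sets, normalization, test, fold minimum, replicate block and each array left out. The number of arrays limits the precision.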

Additional observations from a re-analysis of the deposited data

Results flagged for a closer look

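The interaction of menthol and LPS was called by limma for 2 named genes of the other lists, and neither call held in the fit of all 18193 genes, an alternative tried for these genes after seeing the data. The interaction was -1.66 ± 0.15 for Saa3 (limma adjusted p = 0.0145), which rose by 3.52 ± 0.11 in LPS+M compared to M and by 5.18 ± 0.11 in LPS compared to control. Its adjusted p was 0.0774 with no filter and 0.0305 to 0.0612 with each array left out, and the call was lost without the first control array. For Pde4b the interaction was -0.87 ± 0.12 (limma adjusted p = 0.0424), with 0.128 with no filter and 0.0474 to 0.227 with each array left out, and this call was lost in 10 of 16 alternatives, among them the replicate block. The count of genes called for the interaction was 3 higher and 18 lower of 8908, 0 and 1 with no filter, 0 and 2 without the second M array, and 8 and 32 without the second LPS+M array.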

How the results depend on the processing

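Of 840 recomputed values of single receptors, 807 kept their side of the call, 25 lost a call, 8 gained one and none that was called changed sign. Gpr18 is counted among them, though its values are a description in every comparison. Nothing is read from its calls, in these counts or in those below. With the methods' t-test at its unadjusted threshold, 0 of the 5 receptors above the filter were called in M compared to control and in LPS+M compared to LPS. In LPS compared to M 1 (Gpr84) was called, and C5ar1 lost its call in LPS+M compared to control. Hcar2, under the filter, passed this threshold in LPS compared to control and to M, and in LPS+M compared to M and to control. After Benjamini-Hochberg adjustment the methods' t-test called 0 receptors in all 6 comparisons of 2 groups, and 0 genes of any kind. At its unadjusted threshold it called 181 genes higher and 107 lower between LPS+M and LPS, 205 and 144 between LPS and control, and 177 and 77 between M and control. Between LPS and M it called 298 and 342, and between LPS+M and control 307 and 196. With no fold minimum, 3 receptors were called in M compared to control (Gpr18, Gpr84 and C3ar1), 2 in LPS+M compared to LPS (Gpr18 and C3ar1) and 4 in LPS compared to M, beside 21.7%, 28.7% and 38.7% of all genes in these comparisons. With no filter, 4 were called in LPS compared to M, all higher and Hcar2 and Fpr2 among them, beside 2.33% of all 18193 genes higher. Leaving out each array gave 0.93 to 1.34 for Gpr18 in LPS+M compared to LPS, given as a description. Deviations of arrays with the same replicate number correlated between groups at -0.12 to 0.19 over the tested genes. With 2 arrays a group, this cannot show whether that number pairs the arrays. With the replicate number as a block, 1 receptor was called between LPS+M and LPS, beside 380 of all 8908 genes higher and 223 lower. Between LPS+M and M 2 were called (213 and 161 of all genes), and between LPS+M and control 3 (494 and 386). Between LPS and M 2 were called (410 and 600), and between LPS and control 2 (283 and 266). Between M and control 1 was called (270 and 138), and for the interaction 0 (4 and 16). These were the same receptors as without it. Signals near background limit Hcar2, Fpr2 and Gpr18 in control.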
